A study of Mus musculus with 4 samples.

Results

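The genes described here are the 6 members of the Reg family of regenerating proteins that lie side by side in the mouse genome, *Reg1*, *Reg2*, *Reg3a*, *Reg3b*, *Reg3d* and *Reg3g*. They were taken by name from the 32285 genes of the count files, and all 6 had UMIs (unique molecular identifiers, one per captured RNA molecule) in every section. RNA was captured in spots across fixed, paraffin-embedded pancreas of 4 C57Bl/6 mice (Visium, each section taken to come from its own mouse), and every mouse carried *Pdx1-Cre*, which drives recombination in the pancreatic epithelium (acinar, ductal and islet cells) but not in stromal or immune cells. In 2 mice, labelled *Ehmt2* fl/fl, this Cre deletes *Ehmt2*, which encodes the histone methyltransferase G9a, and the other 2, labelled *Ehmt2* +/+, keep the gene and served as controls. All 4 mice received caerulein, a cholecystokinin analogue that causes acute pancreatitis, as 8 hourly intraperitoneal injections of 50 µg/kg after 12 h of fasting, and were euthanized 18 h after the first dose. Mice given caerulein were 4 weeks old according to the methods of the study. No section of untreated or saline-treated pancreas was analysed here, so every value refers to the inflamed organ.

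Reg proteins are small secreted proteins with a C-type lectin fold. In the pancreas they are made mostly by acinar cells, the exocrine cells that produce the digestive enzymes, and they are well known as acute-phase proteins of pancreatitis. *Reg1* and *Reg2* encode pancreatic stone proteins (lithostathines), secreted with the pancreatic juice. *Reg3b* encodes the pancreatitis-associated protein, and *Reg3b* and *Reg3g* encode bactericidal lectins of the gut epithelium as well, where interleukin-22 and STAT3 signalling induce them.

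The 6 genes occupied 98.2 kb of chromosome 6 (GRCm38, which is mm10; GENCODE M21 coordinates). In order along the chromosome, *Reg3b* lies at chr6:78370657-78373466 on the forward strand, *Reg3d* at chr6:78375874-78378865 on the reverse strand, *Reg3a* at chr6:78380709-78383827, *Reg2* at chr6:78395623-78408106 and *Reg1* at chr6:78422711-78428667 on the forward strand, and *Reg3g* at chr6:78466269-78468872 on the reverse strand. Since they are duplicates of one another, the likeness of their transcripts bears on how well a hybridisation probe can tell them apart. Over the 15 pairs, aligned transcripts were 52.9% to 74.3% identical, with *Reg1* and *Reg2* the most alike at 74.3% and *Reg3b* and *Reg3g* next at 69.9%. The longest run of identical bases shared by any pair was 35, between *Reg3b* and *Reg3g*. The probe sequences themselves were not used here, so a share of cross-hybridised counts between members was not tested.

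The promoters are shown because all members were lower in both *Ehmt2* fl/fl sections, as described below. For *Reg1*, the member with the most UMIs, and for *Reg2* and *Reg3b*, the members that differed most between the genotypes, the stretch from 190 to 24 bases before the RefSeq start (RefSeq, GRCm38.p6, all on the forward strand) is printed 5′ to 3′. Capitals mark matches, on either strand, to CACCTG (an E-box of the kind bound by PTF1A), TGGGAA (the RBPJ half-site), TTCNNNGAA (STAT), TGANTCA (AP-1) and TATAAA.
Reg1, chr6:78425793-78425959: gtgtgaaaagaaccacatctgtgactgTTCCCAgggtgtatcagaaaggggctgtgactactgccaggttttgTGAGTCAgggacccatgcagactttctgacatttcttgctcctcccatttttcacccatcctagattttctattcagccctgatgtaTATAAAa
Reg2, chr6:78404965-78405131: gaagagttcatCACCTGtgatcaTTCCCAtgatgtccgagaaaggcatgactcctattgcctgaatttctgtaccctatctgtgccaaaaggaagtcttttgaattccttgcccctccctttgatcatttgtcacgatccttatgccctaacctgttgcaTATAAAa
Reg3b, chr6:78370695-78370861: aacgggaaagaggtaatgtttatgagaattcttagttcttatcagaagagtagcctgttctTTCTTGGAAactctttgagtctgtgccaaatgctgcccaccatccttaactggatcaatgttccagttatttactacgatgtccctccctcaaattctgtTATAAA

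Over the 250 bases before each start, CACCTG was found in 4 of the 6 members (*Reg2*, *Reg3a*, *Reg3b* and *Reg3d*), and in 17.2% of all 32851 mouse promoters in the same table. TGGGAA was found in 5 of 6 members, all but *Reg3b*, and in 21.6% of all promoters. TTCNNNGAA was found in *Reg3b* and *Reg3d* (7.02% of all promoters), TGANTCA in *Reg1* alone of the members (6.75% of all promoters) and TATAAA in *Reg1*, *Reg2*, *Reg3b* and *Reg3g* (12.4% of all promoters). These are letter matches in a short window and were not tested as binding sites. By alignment, the upstream stretches of *Reg3b* and *Reg3g* were the most alike of the 15 pairs, at 68.7% identity, and those of *Reg2* and *Reg3d* the least, at 47%.

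Only spots with at least 500 UMIs were used, which left 6144 and 7871 spots for *Ehmt2* +/+ replicates 1 and 2, and 6483 and 6462 spots for *Ehmt2* fl/fl replicates 1 and 2. The genotypes are those of the labels, and the replicate numbers only name the sections. *Ehmt2* +/+ replicate 1 stood apart in depth, with a median of 6328 UMIs a spot against 874 to 1113 in the other 3 sections. *Ehmt2* itself did not separate the labels: it had 19.8 and 3.95 UMIs per 1000000 UMIs (CPM) in *Ehmt2* +/+ replicates 1 and 2 and 10.1 and 12.1 CPM in *Ehmt2* fl/fl replicates 1 and 2. The median of 1135 olfactory receptor genes, which should be silent in pancreas, was 0.251 CPM in *Ehmt2* +/+ replicate 1, far below *Ehmt2*, but 4.97, 8.13 and 12.6 CPM in the other 3 sections, near the *Ehmt2* level. The 4 Y-linked genes examined had 0 or 1 UMI in each *Ehmt2* +/+ section and 33 to 139 UMIs each in both *Ehmt2* fl/fl sections, so sex and genotype cannot be told apart. The 17 detected acinar markers (*Cpb1* and *Pnliprp1* were at 0 in all sections) made up 59.1% and 49.6% of UMIs in the *Ehmt2* +/+ sections and 20.4% and 19.8% in the *Ehmt2* fl/fl sections, and the summed macrophage markers reached 102 and 188 CPM against 1090 and 913 CPM. The other summed marker lists, for fibroblasts (480 to 2340 CPM, led by *Col1a2* or *Col3a1*), duct (838 to 3140 CPM, led by *Epcam*), neutrophils (4.66 to 186 CPM), lymphoid cells (10.1 to 234 CPM), fat (46.1 to 646 CPM, led by *Fabp4*) and blood (40.9 to 174 CPM, led by *Hba-a2*), were also higher in CPM in both *Ehmt2* fl/fl sections, whereas the islet list (818 to 6880 CPM, led by *Ins2*) overlapped. The neutrophil and lymphoid sums, over 10 genes each, rose in the same order of sections as the olfactory receptor median. Background was not taken off them. With TMM factors the direction was not the same for all lists: none of the 4 blood genes and 4 of the 10 fibroblast genes had a log2 fold change above 0. Their part in the results was not tested. In sections of this kind fewer acinar cells and less RNA per acinar cell cannot be told apart.

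All 6 members were lower in both *Ehmt2* fl/fl sections than in either *Ehmt2* +/+ section. Together they took 3.69% and 3.73% of all UMIs in *Ehmt2* +/+ replicates 1 and 2 and 1.24% and 0.954% in *Ehmt2* fl/fl replicates 1 and 2. The share of the 20053 tested genes that showed this order of sections was 0.778%. Most genes were higher in CPM in *Ehmt2* fl/fl, with an all-gene median log2 fold change of 1.69 when scaled by library size alone. A low share therefore follows in part from the measure. The difference between group means ranged from 2.35-fold for *Reg3g* to 9.44-fold for *Reg2*. Values of different members were not set against each other, since the number and efficiency of the probes differ between genes.

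*Reg1* reached 27609 and 31525 CPM in *Ehmt2* +/+ replicates 1 and 2 and 10378 and 8284 CPM in *Ehmt2* fl/fl replicates 1 and 2. It had a UMI in 92.9% to 100% of spots a section, and its group means differed 3.17-fold. Its relative *Reg2* had 1955 and 1015 CPM in the *Ehmt2* +/+ sections and 191 and 124 CPM in the *Ehmt2* fl/fl sections. With every spot thinned to 500 UMIs, so that depth was equal, the expected share of spots with a *Reg2* UMI was 58.5% and 38.4% in *Ehmt2* +/+ and 8.27% and 5.48% in *Ehmt2* fl/fl (95.9%, 58.3%, 16.0% and 12.6% without thinning). Both *Ehmt2* fl/fl sections lay below both *Ehmt2* +/+ sections at either depth.

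*Reg3b*, the pancreatitis-associated protein, had 4034 and 3199 CPM in *Ehmt2* +/+ replicates 1 and 2 and 736 and 432 CPM in *Ehmt2* fl/fl replicates 1 and 2, a 6.19-fold difference of means. Its thinned share of spots was 82.6% and 73.9% against 26.3% and 16.2%. *Reg3g*, the closest relative of *Reg3b*, had 597 and 484 CPM against 276 and 185 CPM. Both genes therefore differed in the same direction, the first by more than the second. *Reg3a*, a further lectin of this subfamily, had 2123 and 809 CPM in *Ehmt2* +/+ and 703 and 404.99 CPM in *Ehmt2* fl/fl, so that *Ehmt2* +/+ replicate 2 lay nearer to *Ehmt2* fl/fl replicate 1 than to its own replicate. *Reg3d* had 620 and 270 CPM against 140 and 113 CPM, again with the *Ehmt2* +/+ replicates more than 2-fold apart. Exact 95% intervals for these levels (Clopper-Pearson) reached at most 6.45% below and 6.78% above the value and cover counting error only.

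**Figure D1:**
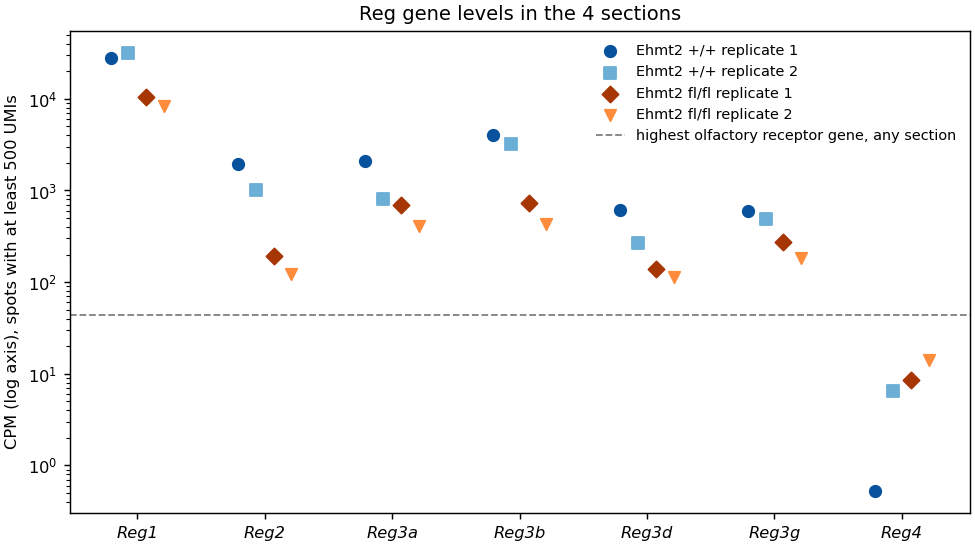
Each point is 1 section's CPM (log axis) of a Reg gene over spots with at least 500 UMIs, with *Ehmt2* +/+ in blue and *Ehmt2* fl/fl in orange, and the dashed line is the highest olfactory receptor gene of any section (43.3 CPM). All 6 members lie above the line in every section and lower in both *Ehmt2* fl/fl sections, whereas *Reg4* lies below the line throughout.

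*Reg4*, the Reg gene outside the chromosome 6 group, had 0.525 and 6.5 CPM in *Ehmt2* +/+ replicates 1 and 2 and 8.58 and 14.2 CPM in *Ehmt2* fl/fl replicates 1 and 2. In each section between 91 and 539 of the 1135 olfactory receptor genes were at or above it, and it was read as background. Among 15 gut epithelial markers, *Zg16* alone was abundant, at 10200 and 9430 CPM in the *Ehmt2* +/+ sections and 2940 and 2630 CPM in the *Ehmt2* fl/fl sections. *Zg16* encodes a zymogen granule protein that acinar cells make too, and the other 14 gut markers summed to 7.99 to 267 CPM. Of these, 12 passed 10 CPM in some section (*Vil1*, *Alpi*, *Lct*, *Sis*, *Muc2*, *Defa30*, *Itln1*, *Cdx1*, *Cdx2*, *Apoa1*, *Apoa4* and *Lgr5*), the highest being *Muc2* at 60.8 CPM in *Ehmt2* fl/fl replicate 2. All but *Muc2* stayed below the highest olfactory receptor gene of that section (43.3 CPM).

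In edgeR's quasi-likelihood test on UMI counts summed per section, with Benjamini-Hochberg adjustment over 20053 genes, 22 genes passed an adjusted p of 0.05 (0.11% of those tested) and none of the 6 members did. The edgeR log2 fold changes of *Ehmt2* fl/fl against *Ehmt2* +/+ were -3.69 (SE 2.35, adjusted p = 0.863) for *Reg1*, -5.53 (SE 1.71, adjusted p = 0.269) for *Reg2* and -4.77 (SE 1.84, adjusted p = 0.67) for *Reg3b*. For *Reg3a*, *Reg3d* and *Reg3g* they were -3.77, -4.17 and -3.38, with adjusted p from 0.424 to 0.79. No gene tested had a lower log2 fold change than *Reg2*, and 0.0399% had a lower one than *Reg3b*. The common dispersion was 0.351, and 1059 of all genes and 5 of the 6 members had an unadjusted p under 0.05. An exact permutation test of CPM over the 4 sections gave p = 0.333 (two-sided) for each member, the smallest value that 2 against 2 allows.

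DESeq2 called all 6 members lower on the same counts. It gave an adjusted p to 1781 of the genes and called 26.1% of these lower. Against the median gene, the members' median log2 fold change was -4.22 with edgeR's TMM factors, -4.47 with DESeq2, -3.71 with upper-quartile scaling and -3.44 with library sizes alone, so the direction held under each scaling. The members' own medians were -3.97, -4.5, -3.16 and -1.74 in that order, so the size depended on the scaling. The TMM factors were 0.288 and 0.957 in *Ehmt2* +/+ replicates 1 and 2 and 1.71 and 2.13 in *Ehmt2* fl/fl replicates 1 and 2. They make the edgeR fold changes larger in size than those in CPM. Without *Ehmt2* +/+ replicate 1, edgeR called 3 members lower (*Reg2*, *Reg3b* and *Reg3d*), beside 0.801% of all genes, and without *Ehmt2* +/+ replicate 2 it called 6, beside 36.3% of all genes. In both of these fits the spread comes from the *Ehmt2* fl/fl pair alone, and the lone *Ehmt2* +/+ section is assumed to vary likewise. The slides held 1 section of each genotype. On slide 1 the *Ehmt2* +/+ section exceeded the *Ehmt2* fl/fl section 2.66-fold for *Reg1*, 10.3-fold for *Reg2* and 5.48-fold for *Reg3b*, and on slide 2 it did so 3.81-fold, 8.2-fold and 7.41-fold.

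The question of whether the Reg genes differed beyond the difference in acinar content was addressed by setting them beside the acinar markers. Over all spots, the 17 acinar markers differed by a median of 3.67-fold between group means, from 8.97-fold lower in *Ehmt2* fl/fl for the elastase *Cela2a* to 0.121-fold, that is higher in *Ehmt2* fl/fl, for the trypsinogen *Prss1*. *Reg2* lay outside this range, and *Reg3b* was exceeded by 3 of the 17 markers (*Cela2a*, *Pnlip* and *Clps*). *Reg1*, *Reg3a*, *Reg3d* and *Reg3g* lay within the range, exceeded by 9 to 13 markers. The markers *Amy2a5* and *Ctrc*, included here, had means of only 17.1 and 21.2 CPM in *Ehmt2* fl/fl. The highest olfactory receptor gene had 26 and 43.3 CPM in *Ehmt2* fl/fl replicates 1 and 2, and background was not taken off.

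Spots were then compared over a narrower range of acinar content, within which the groups were still not equal in it. Acinar content here rests mostly on *Ctrb1*, which held 354000 of 591000 CPM and 298000 of 496000 CPM of the acinar list in *Ehmt2* +/+. In *Ehmt2* fl/fl it held 145000 of 204000 CPM and 141000 of 198000 CPM. Over all spots *Ctrb1* differed 2.28-fold, less than the list's median of 3.67-fold, so spots alike in this share need not be alike in the other enzymes. At 30 to 50% of UMIs from the acinar list, a range that 199, 2618, 1044 and 861 spots of *Ehmt2* +/+ replicates 1 and 2 and *Ehmt2* fl/fl replicates 1 and 2 fell into, *Reg2* had 1340 and 829 CPM in *Ehmt2* +/+ and 340 and 228 CPM in *Ehmt2* fl/fl. *Reg3b* had 3010 and 2490 CPM against 1320 and 781 CPM. Both groups stayed apart for these 2 genes, by 3.82-fold and 2.62-fold. In the same spots the 17 acinar markers differed by a median of 1.56-fold, from 0.049-fold for *Prss1* to 3.45-fold for *Cela2a*. *Cela2a*, *Pnlip* (3.12-fold) and *Clps* (2.76-fold) exceeded *Reg3b*, and none exceeded *Reg2*. *Reg1* had 20600 and 24600 CPM against 18200 and 14300 CPM, which is 1.39-fold, and *Reg3d* 561 and 240 CPM against 230 and 168 CPM. *Reg3a* and *Reg3g* overlapped between the groups, with 1770 and 735 CPM against 1190 and 607 CPM for *Reg3a* and 535 and 446 CPM against 463 and 263 CPM for *Reg3g*. Within this range, 164 and 1831 of the *Ehmt2* +/+ spots lay at 40 to 50%, whereas 887 and 696 of the *Ehmt2* fl/fl spots lay at 30 to 40%. At 40 to 50% alone *Reg2* had 1400 and 887 CPM against 511 and 419 CPM, and *Reg3b* 3230 and 2760 CPM against 2140 and 1350 CPM. The part of this remaining acinar difference in the folds was not tested. Over all spots of 30 to 50%, 4 of the 6 members were lower in both *Ehmt2* fl/fl sections, as were 5.23% of all genes tested.

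In edgeR's quasi-likelihood test on the same spots the log2 fold changes ran from -0.63 for *Reg3g* to -2.17 for *Reg2* and no member was called, beside 0.0381% of genes called lower (Benjamini-Hochberg adjusted p = 0.078 for *Reg2*). At 20 to 40%, where *Ehmt2* +/+ replicate 1 had only 60 spots, *Reg2* was called by edgeR (log2 fold change -2.23, Benjamini-Hochberg adjusted p = 0.00328), beside 0.271% of genes called lower. Counted per 1000 acinar UMIs, *Reg2* was 3.44-fold and *Reg3b* 2.29-fold lower in *Ehmt2* fl/fl with no overlap between groups, an order that 0.13% of all genes showed, whereas the other 4 members overlapped. Acinar UMIs made up 59.1% and 49.6% of UMIs in *Ehmt2* +/+ and 20.4% and 19.8% in *Ehmt2* fl/fl. Dividing by them raises a gene's value in *Ehmt2* fl/fl relative to CPM, so a low share over all genes follows from the measure. The acinar markers were not set beside the members on this measure.

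**Figure D2:**
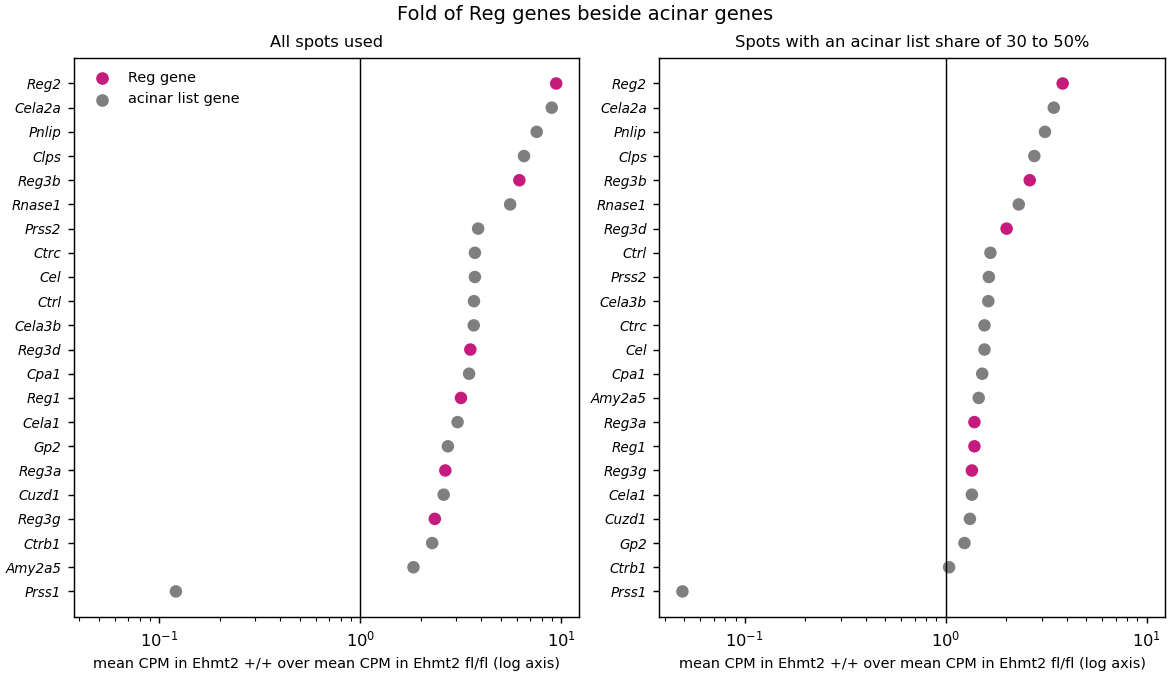
Mean CPM of the 2 *Ehmt2* +/+ sections over that of the 2 *Ehmt2* fl/fl sections (log axis) for the 6 Reg genes (magenta) and the acinar markers shown (grey), over all spots used (left) and over spots with 30 to 50% acinar UMIs (right). *Reg2* has the largest ratio in both panels (9.44 and 3.82), and the 1.39 of *Reg1* lies among the acinar markers, for which the median over the list of 17 in these spots is 1.56.

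The members' levels were higher in spots with a larger acinar share, although *Reg3a*, *Reg3d* and *Reg3g* were lower again in the highest group of spots in some sections. For *Reg1* the level at 20 to 30% acinar UMIs was 12300 and 15200 CPM in *Ehmt2* +/+ replicates 1 and 2. It was 12200 and 10200 CPM in *Ehmt2* fl/fl replicates 1 and 2. At 30 to 40% the groups overlapped, with 17300 and 19800 CPM against 17400 and 13400 CPM. *Reg2* at the same share was 1140 and 675 CPM against 308 and 179 CPM, with both *Ehmt2* fl/fl sections below both controls. The gap narrowed in the few *Ehmt2* fl/fl spots that kept a high acinar share: at 50 to 60%, where these sections had 34 and 28 spots, *Reg2* was 1810 and 1120 CPM against 1340 and 1120 CPM. *Reg3b* there was 3720 and 3600 CPM against 4380 and 4450 CPM, higher in *Ehmt2* fl/fl. At 20 to 30% it had been 1980 and 1240 CPM against 846 and 457 CPM. *Reg3g* at 50 to 60% was also higher in *Ehmt2* fl/fl, at 631 and 524 CPM against 679 and 868 CPM. The *Ehmt2* fl/fl values rest on 33 and 41 UMIs. At 20 to 30% *Reg3g* overlapped, with 302 and 218 CPM against 314 and 218 CPM. These are descriptions across spots of 4 mice, and neither the crossing of *Reg3b* nor the values of *Reg3g* were tested.

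**Figure D3:**
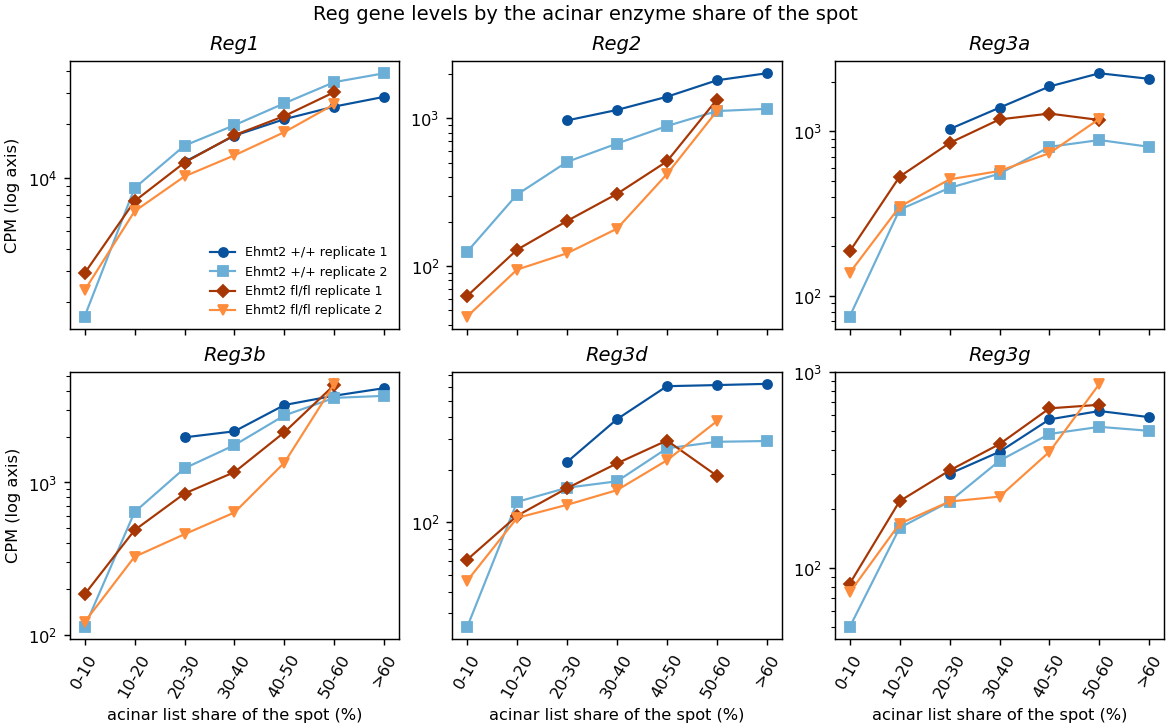
CPM (log axis) of each Reg gene in spots grouped by the share of their UMIs from the acinar list, 1 line a section, for groups of at least 20 spots. The lines of *Reg1* run closer together than those of *Reg2*. The *Ehmt2* fl/fl lines of *Reg2* and *Reg3b* lie below the *Ehmt2* +/+ lines from 10 to 50% and no longer do so at 50 to 60%. At 10 to 20% the only control with a point is *Ehmt2* +/+ replicate 2. At 0 to 10%, where *Ehmt2* +/+ replicate 2 alone of the controls has a point, *Reg3b* is higher in both *Ehmt2* fl/fl sections (184 and 121 CPM against 112 CPM). The control value rests on 9 UMIs in 90 spots. *Reg1*, *Reg3a*, *Reg3d* and *Reg3g* are likewise higher there in both *Ehmt2* fl/fl sections, and *Reg2* is lower.

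Across the tissue the Reg genes followed the acinar enzymes. Between the fifth of each section's spots richest in acinar UMIs and the fifth poorest, 5 of the 6 members were higher in enzyme-rich spots in edgeR's quasi-likelihood test with the section as a block, against 14.4% of 19669 genes called higher and 3.94% called lower. *Reg3b* had the largest edgeR log2 fold change of the members (3.02, SE 0.57, Benjamini-Hochberg adjusted p = 1.23e-04), followed by *Reg1* (2.93, SE 1.12), which just missed the threshold (adjusted p = 0.0593). *Reg2* (2.67), *Reg3a* (2.56), *Reg3g* (2.41) and *Reg3d* (2.28) all passed. The acinar genes that define the classes had a median of 2.85.

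The contrast was steeper where acinar content varied more. In *Ehmt2* fl/fl replicate 1 the poorest and richest spots held 5.88% and 34.3% acinar UMIs, and *Reg3b* had 194 and 1370 CPM in them. In *Ehmt2* +/+ replicate 1 they held 51.2% and 62.6%, and *Reg3b* went from 3310 to 4220 CPM. *Reg3a* and *Reg3g* ran the other way in that section in CPM, at 2130 and 585 CPM in poor and 1990 and 542 CPM in rich spots, although the test itself scaled these sums by TMM factors of 0.466 for poor and 0.235 for rich spots, which turns the direction. Leaving out any 1 section left 4 to 6 members called.

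Spots rich in markers of the other cell types held less Reg RNA or did not differ measurably. In some sections these classes rest on few marker UMIs a spot. In *Ehmt2* +/+ replicate 2 the macrophage-rich spots had medians of 750 UMIs and a 0.149% share from the list. The islet, duct and fibroblast-rich spots there had median shares of 0.348%, 0.389% and 0.325%. Macrophage-rich and fibroblast-rich spots of *Ehmt2* +/+ replicate 1 were shallower, with medians of 2902.5 and 2392 UMIs against 6739 and 6763 elsewhere. The part of depth was not tested. In the tenth of spots richest in macrophage markers all 6 members were lower than in the remaining spots, by log2 fold changes from -0.8 for *Reg3d* to -1.09 for *Reg3b* (edgeR quasi-likelihood test, Benjamini-Hochberg adjusted p from 1.83e-11 for *Reg3b* and 1.03e-12 for *Reg1* to 3.86e-04 for *Reg3d*), against 0.824% of genes called lower and 0.2% called higher. *Reg1* had 23900 and 26500 CPM in macrophage-rich spots of *Ehmt2* +/+ replicates 1 and 2, against 27800 and 31900 CPM elsewhere, and 6160 and 4730 CPM against 10800 and 8590 CPM in *Ehmt2* fl/fl. With library sizes alone the members' median log2 fold change in macrophage-rich spots was -0.48 in place of -0.98 with TMM factors. Against the median gene it was -0.78 in place of -0.87, and 5 members were called (1447 genes in all). *Reg3a* in *Ehmt2* +/+ replicate 1 was not lower in CPM, at 2140 CPM in macrophage-rich spots and 2120 CPM elsewhere. The acinar share of these spots was lower as well, at 12.3% against 21.2% in *Ehmt2* fl/fl replicate 1, and 16 of 17 acinar markers were called lower. Its part in the result was not tested.

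In fibroblast-marker-rich spots all 6 members were lower too, by -0.87 (*Reg3g*) to -1.12 (*Reg1*), against 0.349% of genes called lower and 0.235% called higher. In CPM, *Reg3a* of *Ehmt2* +/+ replicate 1 ran the other way, at 2270 CPM in fibroblast-rich spots and 2120 CPM elsewhere. This count fell to 3 without *Ehmt2* fl/fl replicate 1 and to 1 without *Ehmt2* fl/fl replicate 2. With library sizes alone the members' median log2 fold change in fibroblast-rich spots was -0.43 in place of -1.04 with TMM factors. Against the median gene it was -0.77 in place of -0.91, and 5 members were called (1860 genes in all). Acinar UMIs were again scarcer in these spots, at 9.81% against 20.7% in *Ehmt2* fl/fl replicate 2.

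Islet-marker-rich and duct-marker-rich spots called none of the 6. In islet-marker-rich spots, where 0.734% of genes were called higher and 0.0449% lower, the members' log2 fold changes ran from -0.34 to -0.54. Their edgeR adjusted p ran from 0.693 to 0.912, and 3 members had an unadjusted p under 0.05, as did 1135 of 20039 genes. In duct-marker-rich spots, where 0.05% were called higher and 0.03% lower, the members' log2 fold changes ran from -0.41 to -0.55. Their edgeR adjusted p was 0.966 each, and again 3 had an unadjusted p under 0.05, as did 894 of 20020 genes. DESeq2 called none in either.

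**Figure D4:**
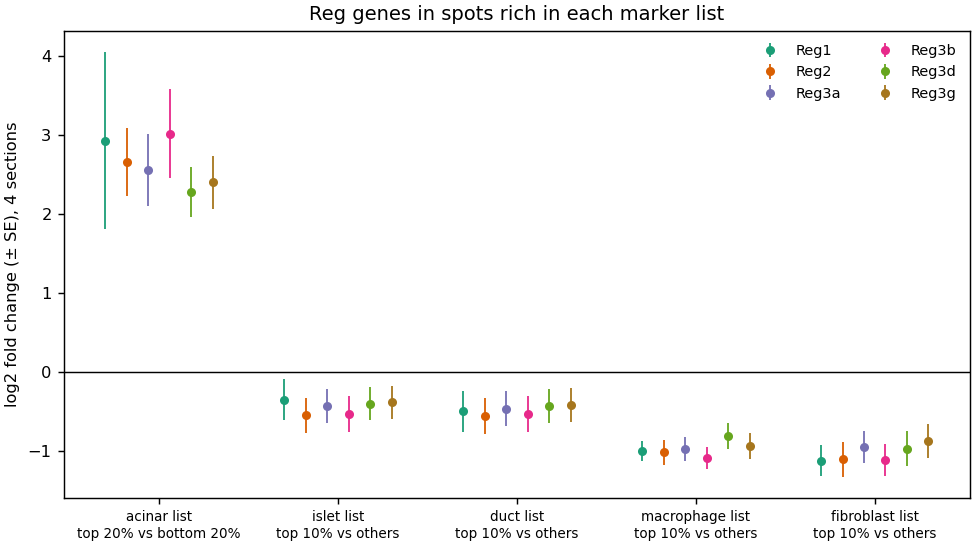
Log2 fold change with its SE (edgeR, 4 sections, section as a block) of each Reg gene in spots rich in a marker list against poor spots (acinar) or all other spots (the other lists). The acinar contrast lies between 2.28 and 3.02, and the macrophage and fibroblast contrasts between -0.8 and -1.12.

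Whether these regional differences themselves differed between the genotypes was tested by an interaction term. None of the 6 members was called in the acinar, islet, duct, macrophage or fibroblast contrast (edgeR, with 0.371%, 0.0898%, 0%, 0.0449% and 0.0449% of genes called). In the acinar contrast all 6 estimates were above 0, from 1.16 for *Reg3d* to 1.97 for *Reg3a*. That is a wider estimated gap between poor and rich spots in *Ehmt2* fl/fl, not a rise per unit of acinar content. Poor spots held 51.2% and 31.3% acinar UMIs in *Ehmt2* +/+ and 5.88% and 3.84% in *Ehmt2* fl/fl. Rich spots held 62.6% and 58.1% against 34.3% and 33.9%. The 17 acinar markers had a median interaction estimate of 1.69, with 16 above 0. For the members the edgeR adjusted p ran from 0.435 to 1. An unadjusted edgeR p under 0.05 was found for 2 members and for 1204 of the 19669 genes tested. DESeq2 called 5 members higher in that interaction, beside 1.52% of the 4416 genes it gave an adjusted p.

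The Reg genes were also more unevenly spread in *Ehmt2* fl/fl. Overdispersion, the squared relative spread between spots that is left after counting error is taken off, was for *Reg2* 0.0504 and 0.119 in *Ehmt2* +/+ replicates 1 and 2 and 1.13 and 1.42 in *Ehmt2* fl/fl replicates 1 and 2. For *Reg3b* it was 0.0593 and 0.137 against 1.04 and 1.85, and for *Reg1* 0.0261 and 0.0828 against 0.375 and 0.378. All 6 members were higher in both *Ehmt2* fl/fl sections, as were 30.2% of the 891 genes with at least 500 UMIs in each section. Within a section, among genes with at least 500 UMIs, *Reg2* and *Reg3b* stood above 44.9% to 55.6% of genes in the *Ehmt2* +/+ sections and above 98.9% to 99.3% in the *Ehmt2* fl/fl sections. *Reg3g* stood above 70.8% and 69.1% in *Ehmt2* +/+ and above 95.5% and 98.3% in *Ehmt2* fl/fl. The genes ranked numbered 4602 and 964 in *Ehmt2* +/+ replicates 1 and 2 and 1792 and 2188 in *Ehmt2* fl/fl replicates 1 and 2. Ranks of different sections are therefore not on the same scale.

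Within spots of 30 to 50% acinar UMIs, *Reg1* no longer separated the groups, at 0.042 and 0.0843 in *Ehmt2* +/+ and 0.0459 and 0.0575 in *Ehmt2* fl/fl. *Reg2*, at 0.0819 and 0.131 against 0.396 and 0.663, and *Reg3b*, at 0.124 and 0.23 against 0.441 and 0.651, stayed apart, as did *Reg3d* at 0.137 and 0.157 against 0.408 and 0.435. *Reg3a* and *Reg3g* lay closer, with 0.196 against 0.209 and 0.294 against 0.309 between the nearest sections of the groups. In these spots 5 of the 6 members, and 14.4% of the same 891 genes, were higher in both *Ehmt2* fl/fl sections. These values have no test, since spots are not replicates.

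**Figure D5:**
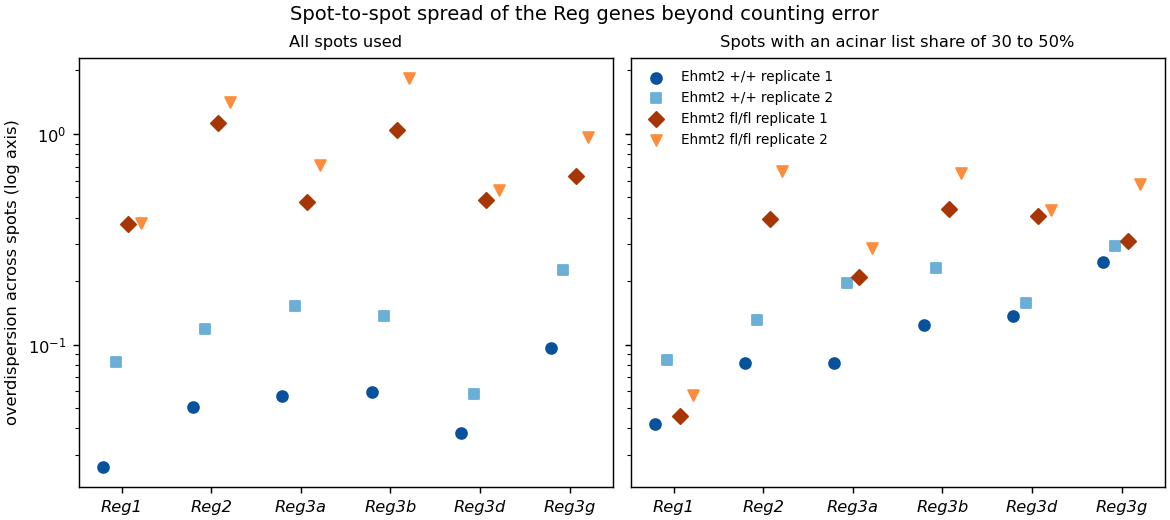
Overdispersion across spots (log axis) of each Reg gene in the 4 sections, over all spots used (left) and over spots with 30 to 50% acinar UMIs (right). In the left panel both *Ehmt2* fl/fl sections lie above both *Ehmt2* +/+ sections for all 6 genes, and in the right panel *Reg1* no longer does so.

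From spot to spot the members varied together only loosely. The correlation across spots of ln(1 + UMIs per 10000 UMIs) was highest for *Reg1* with *Reg3b* (mean r over the 4 sections 0.37, from 0.28 to 0.46) and averaged 0.08 to 0.22 for the other 14 pairs. The points share library and depth and most counts are low, so weak values say little. Of 1187 genes seen in at least 5% of spots of every section, those most like *Reg1* were *2210010C04Rik* (mean r 0.63), *Cela2a* (0.63), *Ctrl* (0.61), *Cpa1* (0.6) and *Ctrb1* (0.59, but 0.03 in 1 section). The genes most like *Reg3b* were *Reg1* (0.37), *Cela2a* (0.33), *2210010C04Rik* (0.31), *Cpa1* (0.29) and *Ctrl* (0.29). *Reg2* and *Reg3d* had under 1000 UMIs in a section and were left out of this comparison. For *Reg3a* the most alike included *Ctrb1* (0.24), *Ctrl* (0.2), *Reg1* (0.19) and *Cela3b* (0.19), and for *Reg3g* they were *Reg3b* (0.17), *Reg1* (0.17), *Cela2a* (0.16), *Cel* (0.16) and *Zg16* (0.15). Apart from the Reg genes, *2210010C04Rik* and *Zg16*, all of these are on the acinar list of digestive enzymes.

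A list of 30 Reg inducers, receptors and signalling genes (the inducer list) was examined, of which 28 genes could be tested. None was called between the genotypes, and their median log2 fold change with TMM factors was -0.65, beside 0.25 for all genes. The summed CPM of the list ran the other way. It was 638 and 728 CPM in *Ehmt2* +/+ replicates 1 and 2 and 1760 and 1640 CPM in *Ehmt2* fl/fl replicates 1 and 2. The direction for the list therefore depended on the measure. Most genes were higher in CPM in *Ehmt2* fl/fl, with an all-gene median log2 fold change of 1.69 with library sizes alone. The list's summed CPM was not set against that of other genes. The inducers *Il6*, *Il22* and *Il17a* are cytokines, and *Il22* was at 0 in 3 sections. In the acinar contrast 8 of the 28 were higher in enzyme-rich spots and none lower, among them the transcription factors *Gata4* (1.08, SE 0.18) and *Ptf1a* (0.9, SE 0.18, edgeR adjusted p = 3.19e-04). Of all genes tested in that contrast, 14.4% were called higher and 3.94% lower. *Ptf1a*, *Gata4* and *Nr5a2*, the last called too, keep the acinar state, and *Lifr*, *Jak1*, *Stat3* and *Il22ra1*, also called, belong to the cytokine pathway. None of the 28 was called in the islet, duct, macrophage or fibroblast contrast.

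Of 20 genes of the acinar injury response none was called between the genotypes, with a median log2 fold change of 0.03. In the acinar contrast 9 were higher, led by *Nupr1* (2.46, SE 0.69), a stress-induced chromatin protein, the trefoil factor *Tff2* (2.4, SE 0.38) and the keratin *Krt20* (2.31, SE 0.25), and 1 was lower, the acute-phase gene *Saa3* (-0.99, SE 0.21, edgeR adjusted p = 5.68e-04). The shares of all genes there were 14.4% called higher and 3.94% called lower. In macrophage-rich spots *Saa3* was higher (0.94, SE 0.26) and 6 genes were lower, led by *Krt20* (-0.93), *Tff2* (-0.92) and *Nupr1* (-0.89), beside 0.2% of all genes called higher and 0.824% lower. In fibroblast-rich spots 5 were lower, led by *Nupr1* (-1.07), *Tff2* (-1.01) and *Krt18* (-0.95), beside 0.349% of all genes called lower.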

How the data were processed

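The authors hybridised probe pairs to fixed pancreas sections, transferred them to CytAssist Visium slides and, per the file headers, counted UMIs per gene and spot with Space Ranger 2.0.1 on mm10. The counts were used as deposited, as whole numbers without normalization. Of 32589 features, 304 marked as deprecated were left out. Each section was taken to come from its own mouse, and slide 1 and slide 2 each held 1 section of each genotype.

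Counts of spots with at least 500 UMIs were summed per section (6643747 to 43784930 UMIs), or per section and spot class, and tested with edgeR 4.0.16 in R 4.3.3 (quasi-likelihood F test, TMM factors, Benjamini-Hochberg adjustment over all genes, threshold 0.05, genes kept by filterByExpr at a minimum of 10 counts), with DESeq2 1.42.0 as an alternative. The code was tested on simulated data. Spot classes were the top and bottom 20% of a section's spots by acinar share, or the top 10% by another marker list against the rest. Spots are not replicates, and p-values measure the spread between sections only. Intervals are exact at 95%. Python 3.11.15 with scipy 1.17.1 gave exact permutation tests and correlations, and Biopython 1.88 the alignments.

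The members, the gene lists and the tests were chosen with earlier results of these data known. Named are all members, *Reg4*, at most 3 called genes a direction from the inducer and injury lists (further called inducers were named after their values were seen), the 5 genes most alike to each member with at least 1000 UMIs in each section, the leading gene of the marker lists, and gut markers above 10 CPM. Some genes that this rule names are not reported here. Individual acinar markers beside the folds were also named after their values were seen. Alternatives covered the test, scaling, filter, spots, class limits and each section left out. The slide block, spots of 30 to 50% or 20 to 40% acinar share and levels per acinar UMI were added after seeing the data.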

Additional observations from a re-analysis of the deposited data

Results flagged for a closer look

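Spots with under 500 UMIs were left out of the reported comparisons and entered only the alternatives with every spot or all spots over tissue, and all 6 members had UMIs in them. Over the 4 sections together these spots held 43695 UMIs of *Reg1*, 1825 of *Reg2*, 2289 of *Reg3a*, 4370 of *Reg3b*, 626 of *Reg3d* and 857 of *Reg3g*. The CPM in these spots was 0.543 to 0.942 times that in the spots used for *Reg1*, 0.703 to 0.869 times for *Reg2*, 0.515 to 0.816 times for *Reg3b*, and between 0.479 and 1.04 times for the other 3 members. The source of these UMIs was not tested.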

How the results depend on the processing

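Of the members' log2 fold changes between genotypes and between spot classes under the alternatives, 354 kept their direction and side of the threshold, 22 passed it newly, 14 no longer passed and 0 reversed. The interactions are not in these counts. With library sizes alone, the members' median interaction estimate turned from 0.52 to -0.07 for duct, 0.38 to -0.2 for islet and 0.15 to -0.49 for fibroblast. Against the median gene it kept its sign. It was 0.22 with TMM factors and 0.19 with library sizes alone for duct. The same pair of values was 0.13 and 0.14 for islet and -0.14 and -0.17 for fibroblast. Between the genotypes, 0 members were called in the reported edgeR fit, 6 with DESeq2 (470 genes in all), 1 with library sizes alone (400 genes), 1 in spots of 20 to 40% acinar share (80 genes), and 0 to 6 with 1 section left out (up to 16653 genes). In the acinar interaction, 0 were called in the reported fit, 5 with DESeq2 (73 genes), 6 with library sizes alone (305 genes), 4 in spots with at least 1000 UMIs (86 genes), and 0 to 5 with 1 section left out (up to 367 genes). The islet interaction called 0, against 1 with DESeq2 (19 genes) and 0 to 3 with 1 section left out (up to 2020 genes), the duct interaction 0, against 0 to 6 with 1 section left out (6, of 2780 genes, without *Ehmt2* +/+ replicate 2), the macrophage interaction 0, against 5 with library sizes alone (135 genes), and the fibroblast interaction 0, against 1 with library sizes alone (196 genes). Duct-rich spots called 1 member with library sizes alone (134 genes), and fibroblast-rich spots called 1 to 6 with 1 section left out. Per 1000 acinar UMIs the ratio of *Ehmt2* +/+ over *Ehmt2* fl/fl means turned to 0.953 for *Reg3a* (2.65 in CPM) and to 0.87 for *Reg3g* (2.35 in CPM). With UMIs counted outside the acinar list, the mean r over 15 pairs was 0.19 in place of 0.16, and the overdispersion difference, a mean over members of *Ehmt2* fl/fl minus *Ehmt2* +/+, was 0.903 in place of 0.743 (0.223 in spots of 30 to 50% acinar share). The cause was not tested.

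The labels give no replicate numbers that pair sections across genotypes. Paired by slide, with the slide as a block, edgeR called 0 members and 13 genes. With 2 mice a group, 1 of them far deeper than the rest, and sex and acinar content moving with genotype, the comparison of genotypes is limited. Thinned shares were not run for spots with under 500 UMIs, which cannot be thinned to that depth.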
